A study of Mus musculus with 4 samples.

Results

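Interferon-stimulated genes were examined in the retina of 3-week-old mice, as a list of 34 antiviral effectors, RNA sensors and regulators of the interferon response among the 52636 genes of the deposited table. The members were chosen by name, as well-known targets and regulators of interferon, with earlier results of these data known. Shares given beside those of all genes therefore describe the list and are no independent test of it. The symbols were matched to the table, and all 34 were found. Wild-type mice (WT, 2 libraries) were compared with mice labelled Q344X (2 libraries), a mutation that makes a premature stop and causes a dominant form of retinitis pigmentosa, in which photoreceptors are lost. All 4 libraries shared the tissue, the age and the preparation, which was polyadenylated RNA from retinas held in a stabilizing reagent and made into directional libraries. How the allele was made, the number of copies carried, sex, litter and batch are absent from the labels. The design text states that 3 samples per group were begun and 2 kept after samples with poor RNA and outliers were removed, whereas the extraction protocol counts 3 Q344X and 2 WT mice.

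Interferons are secreted proteins that cells release when they sense viral or misplaced nucleic acid. They bind receptors that activate JAK kinases, and these phosphorylate STAT proteins. The type I signal ends in a complex of STAT proteins and Irf9 that binds a DNA element called ISRE in front of its target genes, while interferon gamma acts mainly through STAT dimers at an element called GAS. Many target genes are also transcribed at a low basal level without infection, and several of their products (Stat2, Irf9, Irf7 and the RNA sensors) belong to the same pathway, so that it feeds back on itself. In the retina, microglia, vascular cells, Müller glia and neurons can all respond to interferon.

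Against 9.10% of all tested genes, 11 of 31 tested members (35.5%) fell in the Q344X retina, by 1.10 to 3.32 on the log2 scale. These included the transcription factors Irf7 and Irf9, the ubiquitin-like modifier Isg15 and its protease Usp18, the effectors Ifit1, Ifit3, Gbp2, Oasl2 and Ifi27, and the membrane proteins Bst2 and Ifitm3. Isg15, at the 3.32 end, and Usp18 were abundant enough to test only through WT, so a fall was needed for them to be tested. No tested member was called higher, where 5.46% of all tested genes were. The median log2 fold change of the 31 tested members was -0.93, against 0.02 over all tested genes. Summed over all 34 members, the level was 5455 and 4795 normalized counts (reads in a gene divided by 1 size factor per library) in WT replicates 1 and 2. It was 3513 and 2971 in Q344X replicates 1 and 2, so both Q344X libraries lay below both WT libraries, at 68.5% and 58.0% of the WT mean.

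The sequence in front of a start site is where the pathway meets its targets. The stretch before the transcription start is therefore shown for 4 members whose windows hold ISRE letters. It is also shown for a pair of neighbours that differ in holding these letters. Each run is the 250 bases before the start in the RefSeq promoter table (GRCm38.p6), written 5′ to 3′ on the strand of the gene, and capitals mark matches to the ISRE letters, which are GAAA, any 2 bases and GAAA again, on either strand. Isg15, Ifit1, Ifit3 and Gbp2 were lower in Q344X. Rsad2 and Cmpk2 lie next to each other in opposite directions on chromosome 12.
Isg15, chr4:156200819-156201068, minus strand: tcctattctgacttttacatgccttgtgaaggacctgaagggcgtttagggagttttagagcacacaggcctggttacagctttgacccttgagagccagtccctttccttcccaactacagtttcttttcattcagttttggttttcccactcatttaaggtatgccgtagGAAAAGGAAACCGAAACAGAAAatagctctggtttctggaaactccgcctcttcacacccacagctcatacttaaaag
Ifit1, chr19:34640639-34640888, plus strand: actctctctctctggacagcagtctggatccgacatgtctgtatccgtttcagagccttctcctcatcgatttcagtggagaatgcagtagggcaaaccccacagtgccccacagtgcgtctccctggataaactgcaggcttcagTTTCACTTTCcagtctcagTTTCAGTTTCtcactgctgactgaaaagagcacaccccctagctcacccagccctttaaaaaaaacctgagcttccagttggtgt
Ifit3, chr19:34583279-34583528, plus strand: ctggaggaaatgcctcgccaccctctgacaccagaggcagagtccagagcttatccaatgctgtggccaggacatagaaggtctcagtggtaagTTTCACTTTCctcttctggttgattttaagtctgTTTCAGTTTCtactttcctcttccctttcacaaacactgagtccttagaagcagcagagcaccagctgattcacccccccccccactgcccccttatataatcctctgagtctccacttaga
Gbp2, chr3:142620413-142620662, plus strand: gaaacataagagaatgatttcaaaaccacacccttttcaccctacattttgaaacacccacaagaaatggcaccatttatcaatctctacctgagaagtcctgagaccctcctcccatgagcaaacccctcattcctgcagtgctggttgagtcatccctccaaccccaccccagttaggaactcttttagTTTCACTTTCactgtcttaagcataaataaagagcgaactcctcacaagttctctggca
Rsad2, chr12:26456453-26456702, minus strand: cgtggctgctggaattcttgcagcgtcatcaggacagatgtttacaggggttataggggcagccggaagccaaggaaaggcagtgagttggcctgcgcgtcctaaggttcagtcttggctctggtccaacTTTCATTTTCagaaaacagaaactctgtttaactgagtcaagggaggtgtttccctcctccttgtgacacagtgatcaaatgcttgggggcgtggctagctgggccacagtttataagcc
Cmpk2, chr12:26468965-26469214, plus strand: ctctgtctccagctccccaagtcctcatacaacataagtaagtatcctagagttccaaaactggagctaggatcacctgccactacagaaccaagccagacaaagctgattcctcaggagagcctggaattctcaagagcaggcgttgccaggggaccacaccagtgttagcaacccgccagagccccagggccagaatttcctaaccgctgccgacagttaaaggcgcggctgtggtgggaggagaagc

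The ISRE letters occurred 3 times in overlapping positions in front of Isg15, at 56, 62 and 68 bases from the start. Ifit1 held them at 75 and 94 bases, Ifit3 at 112 and 146, Gbp2 at 49 and Rsad2 at 110. The run of Cmpk2 held none. A promoter window of 300 bases (250 before and 50 after the start) was found for 27 of the 34 members, and 15 of these 27 (55.6%) held the ISRE letters in at least 1 window, where 3.99% of all 27025 genes did (3.44% of all 32851 windows). Among members with a window, the letters were found in 6 of the 9 that were lower, in 8 of the 16 tested members that did not pass, and in 1 of the 2 that were not tested. The windows of Irf7, Irf9 and Oasl2, which were lower, had no match. The GAS letters TTCNNNGAA, searched on both strands, were found in 8 of the 27 members (29.6%) and in 9.55% of all genes, and 149 of all windows held both motifs. A match is a run of letters and not a measured binding site. No window was found for Dhx58, Usp18, Parp9, Parp14, Oas2, Ifi27 and Rtp4.

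The test was a limma fit across all 16833 genes whose normalized counts averaged 10 or more, on log2(normalized count + 1), with a two-sided Benjamini-Hochberg adjusted p under 0.05 as the threshold. Of the 34 members, 31 reached that mean, and 11 of them (35.5%) were lower in Q344X, where 9.10% of all tested genes were. None was higher, where 5.46% of all tested genes were, and 20 (64.5%) did not pass, where 85.4% of all tested genes did not. Among the 10510 genes that lie in the members' range of mean expression, 11.0% were lower and 5.78% higher. At an unadjusted p under 0.05, 19 members were lower and 0 higher. The share of all tested genes under that p is not given here, so the 19 do not set the members apart. The quasi-likelihood test of edgeR on the reads recovered from the normalized values called 10 lower and 0 higher (9.26% and 5.11% of all genes). The fitted change was below 0 in 30 of the 31 members, where it was in 48.8% of all genes. In 23 members (74.2%) both Q344X libraries lay below both WT libraries, where 31.7% of all genes showed this order, and in 1 (Irf1) both lay above, where 31.4% did. The groups did not overlap in 24 members, against 63.1% of all genes, and overlapped in 7.

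Low levels limit some of these calls. Isg15, Usp18, Dhx58 and Rtp4 reached the mean of 10 only through their WT libraries, which made a lower value in Q344X necessary for them. All of them are counted in the median, among the 30 changes below 0 and among the 23 members below WT. Among the 27 tested members whose Q344X mean was itself at least 10, 9 were lower, where 1299 of the 16230 such genes (8.0%) were. When every gene above 0 was tested, limma called 0 members (19 at an unadjusted p under 0.05, with adjusted p of 0.0541 to 0.117 for the 11 genes), while edgeR called 12, the 11 among them. The share of all genes that edgeR called lower with every gene above 0 tested is not given here. In bulk tissue, fewer cells that express a gene and less RNA per cell cannot be told apart.

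**Figure D1:**
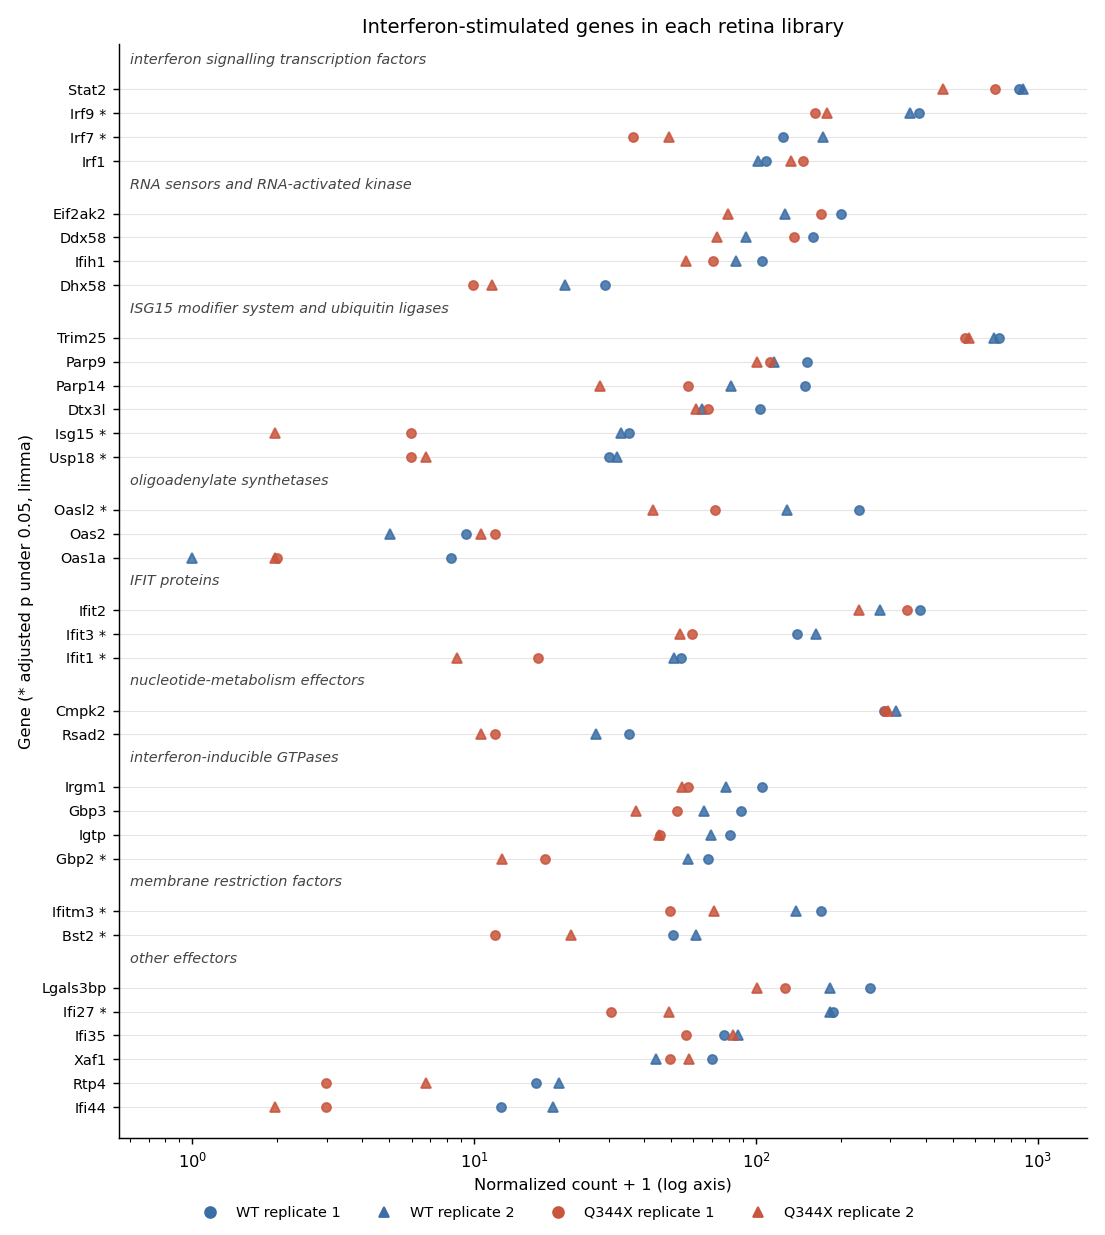
Normalized counts plus 1 on a log axis for each of the 34 members, grouped by role, with 1 point per library (circles replicate 1, triangles replicate 2) and an asterisk for adjusted p under 0.05 in limma. In the 11 genes with an asterisk both Q344X points lie to the left of both WT points, and Irf1 shows the opposite order.

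Among the transcription factors of the pathway, Irf7 and Irf9 fell, and Irf1 and Stat2 did not pass. Irf7 (ENSMUSG00000025498, chromosome 7, 141262706 to 141266481, GRCm38), the factor that amplifies transcription of type I interferon genes, was at 124 and 171 normalized counts in WT and at 35.6 and 48.0 in Q344X. The groups did not overlap, and the log2 fold change was -1.79 ± 0.30 (SE, 2 libraries per group, limma adjusted p = 0.0203). Irf9 (ENSMUSG00000002325, chromosome 14, 55603571 to 55610030), the DNA-binding subunit of the complex that carries the type I signal, was at 378 and 351 in WT and at 161 and 178 in Q344X. Its libraries also formed separate groups with little spread within each, and the log2 fold change was -1.10 ± 0.20 (limma adjusted p = 0.0239). Stat2, the STAT protein specific to type I and type III signalling and the most abundant of the 4 per kilobase, was at 858 and 882 in WT and at 705 and 459 in Q344X. Both Q344X libraries were lower, by different amounts, and the change of -0.61 ± 0.25 did not pass (limma adjusted p = 0.143). Irf1, the factor induced most strongly by interferon gamma, was at 107 and 100 in WT and at 146 and 132 in Q344X. It was the only one of the 31 tested members with a fitted change above 0 (0.42 ± 0.22, 95% interval -0.12 to 0.96, limma adjusted p = 0.233). The call of Irf9 was lost without WT replicate 1 (limma adjusted p = 0.113) and without WT replicate 2 (0.0770), and Stat2 passed without Q344X replicate 1 (0.00680).

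None of the 4 RNA sensors and RNA-activated kinases passed in limma or in edgeR. Ddx58 encodes RIG-I and Ifih1 encodes MDA5, the cytoplasmic sensors of viral RNA, and Dhx58 encodes their relative LGP2. Eif2ak2 encodes PKR, a kinase that halts translation when it binds double-stranded RNA. Eif2ak2, the most abundant of them per kilobase, was at 200 and 125 normalized counts in WT and at 169 and 78.7 in Q344X. Its libraries overlapped, with the first replicate above the second in both groups, and the log2 fold change was -0.45 ± 0.43 (95% interval -1.50 to 0.60, limma adjusted p = 0.492). Ddx58 had the same pattern, at 158 and 91.2 in WT and 136 and 72.0 in Q344X (-0.28 ± 0.41, limma adjusted p = 0.663). Ifih1 was at 104 and 84.2 in WT and at 69.3 and 55.7 in Q344X, which do not overlap, with a change of -0.58 ± 0.27 (limma adjusted p = 0.185). Dhx58, a rarer transcript, was at 28.1 and 20.1 against 8.91 and 10.6 (-1.21 ± 0.42, limma adjusted p = 0.101). Eif2ak2 passed without Q344X replicate 1 (limma adjusted p = 0.0266).

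The ISG15 system attaches a ubiquitin-like protein to other proteins. Isg15 itself (ENSMUSG00000035692, chromosome 4, 156199424 to 156200818), whose promoter letters are printed above, was at 34.3 and 32.1 normalized counts in WT and at 4.95 and 0.960 in Q344X. These stand for 33 and 32 reads against 5 reads and 1 read, so the depth of the Q344X value is low. Like Usp18, Isg15 reached the mean of 10 only through WT, so a fall was needed for it to be tested. Both Q344X libraries were far below WT, with a log2 fold change of -3.32 ± 0.65 (95% interval -4.92 to -1.73, limma adjusted p = 0.0285), the largest fall among the tested members. Usp18 (ENSMUSG00000030107, chromosome 6, 121245906 to 121270917), the protease that removes ISG15 and a brake on the type I receptor, was at 29.1 and 31.1 in WT and at 4.95 and 5.76 in Q344X (-2.29 ± 0.41, limma adjusted p = 0.0246). The replicates of Usp18 lay close together in both groups, and its call was lost without WT replicate 2 (limma adjusted p = 0.0646). Parp14, a mono-ADP-ribosyltransferase, was at 149 and 80.2 in WT and at 56.4 and 26.9 in Q344X, a change of -1.46 ± 0.47 that did not pass (limma adjusted p = 0.0870). Its groups did not overlap and the first replicate was the higher in both, and it passed without WT replicate 2 (0.0189) and without Q344X replicate 1 (0.000648).

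The ubiquitin ligases Trim25 and Dtx3l and the partner Parp9 did not pass. Trim25, the ligase that modifies RIG-I and the most abundant of this set per kilobase, was at 728 and 698 normalized counts in WT and at 552 and 567 in Q344X. The libraries of Trim25 did not overlap, and its log2 fold change of -0.35 ± 0.17 did not pass (95% interval -0.77 to 0.08, limma adjusted p = 0.210). Dtx3l and Parp9, whose products form a complex that couples ubiquitin and ADP-ribose, lie on opposite strands of chromosome 16 and overlap by 682 bases. Dtx3l was at 102 and 63.2 in WT and 66.3 and 60.5 in Q344X, which overlap, and Parp9 was at 151 and 115 against 111 and 99.8 (-0.34 ± 0.32 and -0.32 ± 0.25, limma adjusted p = 0.486 and 0.394). No source used here says whether the authors counted by strand, so reads from this overlap cannot be assigned with certainty.

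Oligoadenylate synthetases make a small nucleotide signal that sets off the breakdown of RNA. Oasl2 (ENSMUSG00000029561, chromosome 5, 114896936 to 114912234) was the only one of the 3 listed genes above the minimum mean, at 231 and 127 normalized counts in WT and at 70.3 and 42.2 in Q344X. The groups did not overlap, the first replicate was higher in both, and the log2 fold change was -1.64 ± 0.40 (limma adjusted p = 0.0468). That call was lost without WT replicate 1 (0.116), with a minimum mean of 50 (0.0541), with quantile normalization (0.0669) and in edgeR (0.0503). Oas1a was at 7.28 and 0 in WT and 0.990 and 0.960 in Q344X, and Oas2 at 8.32 and 4.01 against 10.9 and 9.60, and neither was tested. Of the 50-base stretches of the longest Oas1a transcript, 57.6% also occur in Oas1g, so its count is uncertain.

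IFIT proteins bind viral RNA with foreign ends. The 3 IFIT members lie in 1 cluster on chromosome 19, and Ifit1 and Ifit3 fell. Ifit1 (ENSMUSG00000034459, 34640871 to 34650009) was at 53.0 and 50.1 normalized counts in WT and at 15.8 and 7.68 in Q344X, a log2 fold change of -2.12 ± 0.43 (limma adjusted p = 0.0317). Ifit3 (ENSMUSG00000074896, 34583531 to 34588731) was at 138 and 162 in WT and at 58.4 and 52.8 in Q344X (-1.42 ± 0.24, limma adjusted p = 0.0214). In both genes every Q344X library was below every WT library. Ifit3 shares 51.2% of its 50-base stretches with the neighbouring copy Ifit3b, so reads may be split between them. Ifit3b was at 104 and 82.2 in WT and at 24.8 and 32.6 in Q344X (-1.67 ± 0.30, limma adjusted p = 0.0252, and 0.0714 without WT replicate 1). The call of Ifit3 was lost without WT replicate 2 (limma adjusted p = 0.0835). Ifit2, whose 2 promoter windows hold no ISRE letters, was at 382 and 275 in WT and at 342 and 230 in Q344X. Its libraries overlapped and the log2 fold change was -0.21 ± 0.28 (95% interval -0.90 to 0.49, limma adjusted p = 0.637). Whether Ifit2 differs in its change from Ifit1 and Ifit3 was not tested.

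Rsad2 and Cmpk2 are neighbours that act on nucleotides. Rsad2 encodes viperin, which makes a modified nucleotide that ends viral RNA chains, and Cmpk2 encodes a mitochondrial nucleotide kinase. Rsad2 was at 34.3 and 26.1 normalized counts in WT and at 10.9 and 9.60 in Q344X. These groups did not overlap, and the log2 fold change of -1.46 ± 0.39 narrowly missed the threshold (limma adjusted p = 0.0579), passing without Q344X replicate 1 (0.0372) and after the length and GC correction (0.0421). Cmpk2, the more abundant of the pair per kilobase, was at 284 and 312 in WT and at 285 and 293 in Q344X. Its 4 libraries overlapped within a narrow range, with a log2 fold change of -0.04 ± 0.19 (95% interval -0.51 to 0.42, limma adjusted p = 0.890). The run of bases before Rsad2 printed above holds 1 match to the ISRE letters and that before Cmpk2 holds none. Whether Rsad2 and Cmpk2 differ in their change, or whether the letters bear on it, was not tested.

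Interferon-inducible GTPases attack the membranes around intracellular microbes. Gbp2 (ENSMUSG00000028270, chromosome 3, 142620602 to 142638008), a guanylate-binding protein, was at 66.6 and 56.1 normalized counts in WT and at 16.8 and 11.5 in Q344X. The groups were far apart, with a log2 fold change of -2.06 ± 0.35 (limma adjusted p = 0.0219). Gbp3, its neighbour, was at 87.4 and 64.2 against 51.5 and 36.5 (limma adjusted p = 0.149). Irgm1, a regulator of the immunity-related GTPases, was at 104 and 77.2 in WT and at 56.4 and 53.7 in Q344X (-0.69 ± 0.27, limma adjusted p = 0.137). Igtp, an effector of the same family and the most abundant of the 4 per kilobase, was at 80.1 and 68.2 in WT and at 44.6 and 44.2 in Q344X (-0.72 ± 0.27, 95% interval -1.38 to -0.07, limma adjusted p = 0.118). In all 4 GTPase genes both Q344X libraries lay below both WT libraries, an order that 31.7% of all tested genes showed. Gbp2 was the only one of them past the threshold. Igtp overlaps Irgm2 by 7974 bases on the same strand, so their reads are uncertain. Irgm2 was at 77.0 and 45.1 in WT and at 17.8 and 13.4 in Q344X (-1.86 ± 0.40, limma adjusted p = 0.0345, and 0.139 without WT replicate 1).

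Membrane restriction factors keep viruses from leaving or entering cells, and both listed genes fell. Bst2 (ENSMUSG00000046718, chromosome 8, 71534255 to 71537456), which encodes tetherin, was at 49.9 and 60.2 normalized counts in WT and at 10.9 and 21.1 in Q344X, a log2 fold change of -1.78 ± 0.42 (limma adjusted p = 0.0427). Ifitm3 (ENSMUSG00000025492, chromosome 7, 141009586 to 141010770), a transmembrane protein that blocks viral fusion, was at 168 and 137 in WT and at 48.5 and 70.1 in Q344X (-1.37 ± 0.29, limma adjusted p = 0.0330). Neither gene overlapped between the groups, and in both Q344X replicate 2 was the higher of the Q344X libraries. Quantile normalization ended both calls (limma adjusted p = 0.0676 and 0.0542), as did leaving out WT replicate 2 for Bst2 (0.103) and WT replicate 1 for Ifitm3 (0.104). The related gene Ifitm1 fell from 71.8 and 92.2 to 14.9 and 20.2 (-2.17 ± 0.33, limma adjusted p = 0.0164), and Ifitm2 was at 57.2 and 55.1 in WT and at 50.5 and 63.3 in Q344X, with a change of 0.01 ± 0.28 (0.982) whose sign turned under 4 of the alternatives that kept all libraries, 75th percentile scaling among them.

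**Figure D2:**
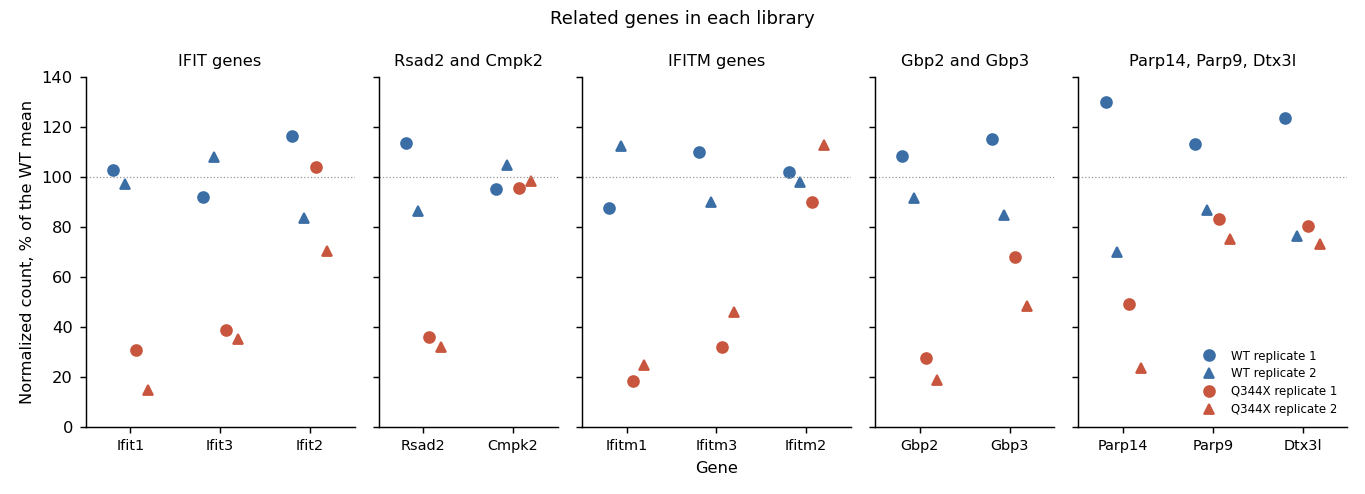
Normalized counts as a percentage of the WT mean of each gene (dotted line at 100) for 5 sets of related or neighbouring genes, with 1 point per library. Q344X points of Ifit1, Ifit3, Rsad2, Ifitm1, Ifitm3, Gbp2 and Parp14 lie below the WT points, while those of Ifit2, Cmpk2, Ifitm2 and Dtx3l overlap with them.

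Of the remaining effectors, Ifi27 fell most clearly. Ifi27 (ENSMUSG00000064215, chromosome 12, 103434211 to 103440239), a small membrane protein that interferon induces strongly, was at 186 and 182 normalized counts in WT and at 29.7 and 48.0 in Q344X. The groups were well separated, the log2 fold change was -2.26 ± 0.31 and the limma adjusted p of 0.0124 was the lowest among the members. Lgals3bp, a secreted glycoprotein, was at 254 and 181 in WT and at 126 and 99.8 in Q344X, and Rtp4, an interferon-induced chaperone of receptors, at 15.6 and 19.0 against 1.98 and 5.76. Neither passed (-0.93 ± 0.27 and -2.02 ± 0.60, limma adjusted p = 0.0681 and 0.0729), though their groups did not overlap; Lgals3bp passed without Q344X replicate 1 (0.00924) and Rtp4 without Q344X replicate 2 (0.0166). Ifi44 was at 11.4 and 18.0 in WT and at 1.98 and 0.960 in Q344X, under the minimum mean, and was not tested. Ifi35 and Xaf1, the last a partner of an apoptosis inhibitor, overlapped between the groups, with 75.9 and 85.2 against 55.4 and 81.6 for Ifi35 and 68.6 and 43.1 against 48.5 and 56.6 for Xaf1. Their log2 fold changes were -0.25 ± 0.29 and -0.05 ± 0.33 (limma adjusted p = 0.572 and 0.921).

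**Figure D3:**
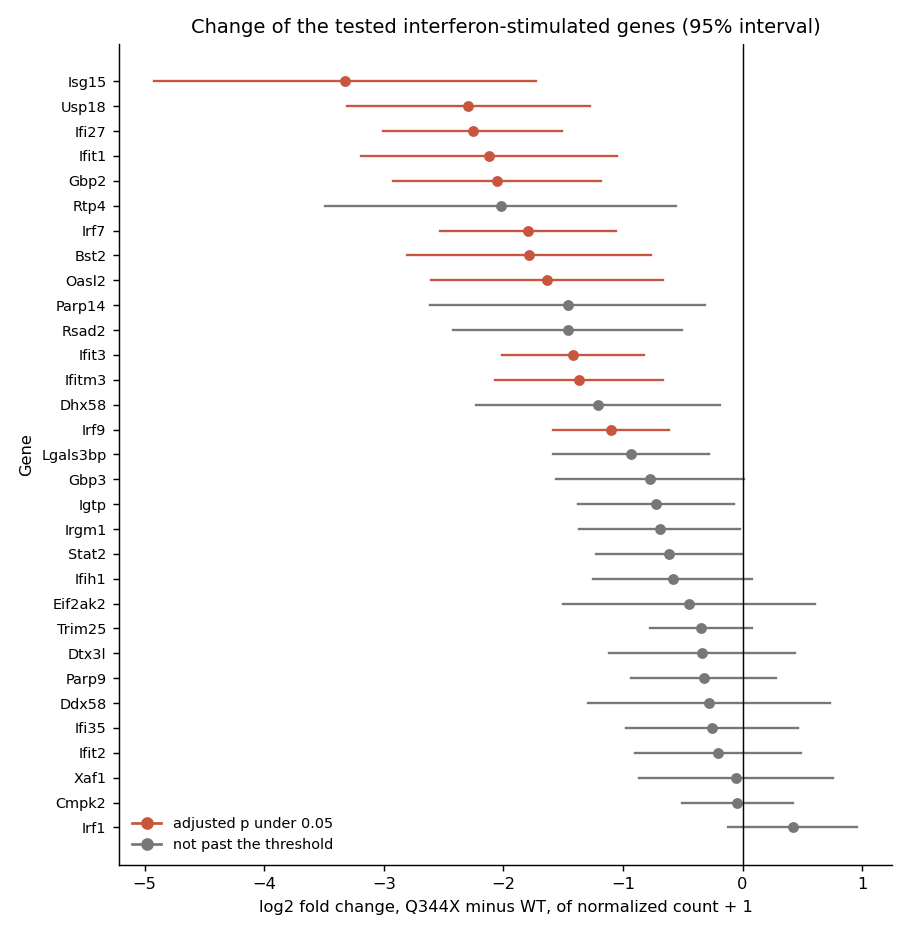
Log2 fold change, Q344X minus WT, of each of the 31 tested members with its 95% interval from limma, ordered by size, in red where adjusted p was under 0.05. The 11 red genes run from Isg15 at -3.32 to Irf9 at -1.10, and Irf1 at 0.42 is the only point to the right of 0. Isg15, Usp18, Dhx58 and Rtp4 reached the minimum mean only through WT, so a fall was needed for them to be shown.

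Replicates of 1 group differed in the same direction in many members. In WT, 25 of the 34 members were higher in replicate 1 than in replicate 2, and in Q344X 22 were, with 19 higher in the first replicate of both groups (the numbers follow accession order and pair nothing). The replicates differed by over 0.5 on the log2 scale in 6 tested members in WT and in 14 in Q344X. The shares of all genes with such differences were not counted, so these numbers do not set the members apart from other genes. Long and short genes differed in opposite directions between replicates. With the tested genes split into 3 equal groups by exon length, the median of Q344X replicate 1 minus replicate 2 was -0.25 in the shortest group and 0.21 in the longest, where WT replicate 1 minus replicate 2 gave -0.09 and 0.06, and Q344X minus WT gave 0.10 and -0.06. The share of counts from ribosomal protein genes was 0.767% and 0.960% in WT and 1.23% and 1.96% in Q344X, and that of mitochondrial genes was 2.49% and 2.19% against 1.84% and 1.68%. With each library corrected for length and GC content, 13 members were lower, where 14.2% of all tested genes were. Without 1 library, the number of lower members was 8 without WT replicate 1, 8 without WT replicate 2, 17 without Q344X replicate 1 and 13 without Q344X replicate 2. The shares of all tested genes called lower in the same fits were 5.40%, 6.10%, 18.1% and 11.7%.

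Around the members, the genes of the interferon pathway were read in lists by their place in it. Of 20 interferon ligand genes none reached the minimum mean, and 16 were at 0 in every library. Ifnb1, the type I interferon that most cells make first, was at 0 in all 4 libraries, where 3 reads would be 2.88 to 3.12 normalized counts. Ifng, interferon gamma, was at 0 in both WT libraries and in Q344X replicate 1, and at 3.84 in Q344X replicate 2. At this depth no difference in the ligands' RNA was detectable.

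Of the 16 receptor and JAK-STAT genes 15 were tested, 1 was lower and 0 higher (edgeR 1 and 0), and the median log2 fold change was 0.03. Of all tested genes 9.10% were lower and 5.46% higher. The receptor genes, named after their values were seen, did not pass. Of the type I receptor chains, Ifnar1 was at 1169 and 1172 normalized counts in WT and at 1309 and 1273 in Q344X (0.14 ± 0.17, limma adjusted p = 0.581), and Ifnar2 at 128 and 119 against 159 and 203 (0.54 ± 0.23, 0.161). Of the interferon gamma receptor chains, Ifngr1 was at 713 and 797 in WT and at 697 and 686 in Q344X (-0.12 ± 0.18, limma adjusted p = 0.648), and Ifngr2 at 341 and 512 against 583 and 1006 (0.87 ± 0.33, 0.128). Ifngr2 passed without Q344X replicate 1 (1.26, limma adjusted p = 0.00120), and leaving out each library in turn gave changes from 0.48 to 1.26.

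Among 23 genes of nucleic acid sensing, which lie upstream of interferon, 19 were tested, with a median of -0.34. Of these 19, 4 (21.1%) were lower and 0 higher, where 9.10% and 5.46% of all tested genes were. Mavs, the mitochondrial adaptor of RIG-I and MDA5, was at 567 and 473 normalized counts in WT and at 235 and 155 in Q344X (-1.43 ± 0.26, limma adjusted p = 0.0254). Irf3, the factor that starts interferon transcription after sensing, was at 1155 and 1110 in WT and at 409 and 451 in Q344X (-1.40 ± 0.18, limma adjusted p = 0.0106). In both genes the Q344X libraries were at less than 50% of WT. Samhd1, a nuclease that lowers the supply of nucleotides, fell from 835 and 743 to 382 and 269 (-1.29 ± 0.23, limma adjusted p = 0.0246). Irf2, an antagonist of Irf1, fell from 401 and 485 to 189 and 254 (-1.01 ± 0.24, limma adjusted p = 0.0431). Irf2 lost its call under 5 alternatives, among them without WT replicate 1 (0.0703) and without WT replicate 2 (0.197).

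A further 56 interferon-stimulated genes outside the members gave 36 tested genes, with a median of -0.89. Of these 36, 10 (27.8%) were lower and 1 (2.78%) was higher, where 9.10% and 5.46% of all tested genes were. Sp100, Ifi203 and Trim30a, all among the 10, reached the minimum mean only through their WT libraries, which made a lower value in Q344X necessary for them. Of the 28 tested genes of this list with a Q344X mean of at least 10, 7 were lower, where 8.0% of all such genes were. Sp100, a nuclear body protein, was at 44.7 and 18.0 normalized counts in WT and at 0.990 and 3.84 in Q344X (-3.25 ± 0.71, limma adjusted p = 0.0363). Ifi203, a member of the DNA-binding p200 family, and Trim30a had changes of -2.27 ± 0.50 and -1.88 ± 0.46 (limma adjusted p = 0.0369 and 0.0487). Ifi203 lost its call without WT replicate 1 (0.171), and Trim30a under 5 alternatives, among them without WT replicate 1 (0.260) and without WT replicate 2 (0.0561). Over the 115 genes of these lists together, 70 were tested, 15 were lower and 1 was higher, and edgeR called 16 and 0, against the shares of all genes given above.

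**Figure D4:**
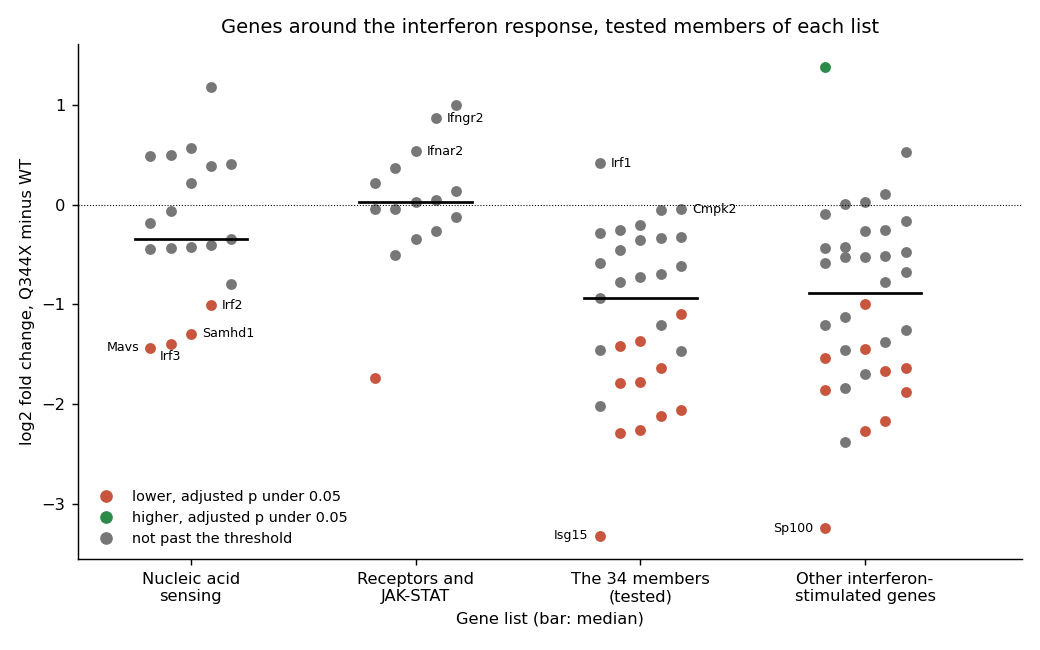
Log2 fold change, Q344X minus WT, of each tested gene in 4 lists (points), with the median of each list as a bar and colours for adjusted p under 0.05 in limma. The receptor and JAK-STAT list centres on 0.03 while the medians are -0.34 for sensing, -0.93 for the members and -0.89 for the other interferon-stimulated genes.

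Markers of the cell types that respond to interferon, or that could differ in number between the samples, were read beside the members. Of 16 microglia and macrophage markers, all tested, 0 passed in limma or edgeR (0 lower and 1 higher at an unadjusted p under 0.05). Their summed level was 1850 and 1580 normalized counts in WT and 1822 and 2135 in Q344X. So the members were lower in Q344X while the summed microglia markers were not. Endothelial markers summed to 6840 and 5066 in WT and to 8436 and 6621 in Q344X, which overlap. Of the 10, 2 rose, where 5.46% of all tested genes did: Tie1 (1.25 ± 0.21) and Egfl7 (1.27 ± 0.24, limma adjusted p = 0.0201 and 0.0256). The other 8 did not pass. Both Q344X libraries lay above WT in 6 and below WT in 1, against 31.4% and 31.7% of all tested genes. The 1 below was Flt1, at 1310 and 1285 in WT and at 1113 and 1046 in Q344X. Without WT replicate 2 Tie1 did not pass (0.0711), nor Egfl7 without WT replicate 1 (0.0692). Of 9 Müller glia markers 2 (22.2%) fell, where 9.10% of all tested genes did. These were Aqp4 and Kcnj10, a water and a potassium channel gene (-1.004 ± 0.20 and -0.85 ± 0.17, limma adjusted p = 0.0294 and 0.0312). The list summed to 112407 and 100497 against 98110 and 94275. These calls of Aqp4 and Kcnj10 were lost without WT replicate 1 (0.148 and 0.163) and without WT replicate 2 (0.0721 and 0.207).

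Of 8 pericyte and fibroblast markers 7 were tested, and 0 passed in limma or edgeR (2 lower and 0 higher at an unadjusted p under 0.05). All 7 fitted changes were below 0, with a median of -0.12, and the list summed to 3525 and 3012 in WT and to 3152 and 2718 in Q344X, which overlap. Dcn, a collagen-binding proteoglycan gene, was at 21.8 and 46.1 in WT and at 11.9 and 6.72 in Q344X. Its log2 fold change was -1.72 ± 0.53 (limma adjusted p = 0.0794), and it ran from -2.24 to -1.20 under the alternatives. Dcn reached the minimum mean only through its WT libraries, so a fall was needed for it to be tested. The collagen gene Col1a2 was at 380 and 418 against 232 and 301 (-0.59 ± 0.22, limma adjusted p = 0.118), and it passed without Q344X replicate 2 (0.0475). The part of pericyte and fibroblast content in the members' levels was not tested.

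Erythrocyte markers, like the members, had lower sums in Q344X. All 5 were lower in both Q344X libraries than in both WT libraries, an order that 31.7% of all tested genes showed. Their sums were 493 and 520 in WT and 127 and 264 in Q344X. Within each group this sum was lower in replicate 1, whereas that of the members was higher in replicate 1. The globin genes Hba-a1 and Hbb-bt fell (-1.72 ± 0.33 and -2.82 ± 0.52, limma adjusted p = 0.0272 and 0.0253; Hba-a1 0.0626 without WT replicate 1). Hbb-bt and Hba-a2, which did not pass, reached the minimum mean only through their WT libraries, so a fall was needed for both to be tested. Hbb-bs, the most abundant, was at 329 and 373 against 92.1 and 214 (-1.31 ± 0.40, limma adjusted p = 0.0803). It passed when WT replicate 1 (0.0266), Q344X replicate 1 (0.04995) or Q344X replicate 2 (7.2e-05) was left out and after the length and GC correction (0.0300), with changes from -1.92 to -0.71 when 1 library was left out. The part of blood content in the members' levels was not tested. Of the 9 lymphocyte and natural killer cell markers 2 were tested. Cd8a was at 9.36 and 12.03 in WT and at 121 and 72.0 in Q344X (3.02 ± 0.39, limma adjusted p = 0.0108). Lck was at 14.6 and 22.1 against 31.7 and 41.3, and did not pass (0.97 ± 0.38, limma adjusted p = 0.135). Of the untested markers, Cd3e, which defines T cells, had 0.960 in Q344X replicate 2 and 0 elsewhere. Whether lymphocytes differed in number was not tested. The monocyte markers Ly6c2 and Ccr2 were at 0 in every library. Photoreceptor genes, which mark the labelled tissue, were abundant. Of 8 rod markers 2 fell, 0 rose and 6 did not pass, with a median log2 fold change of -0.24. Both Q344X libraries lay below WT in 3 and above WT in 2, against 31.7% and 31.4% of all tested genes. Gnat1, a rod transducin gene that fell, was at 179576 and 204223 in WT and at 39731 and 37666 in Q344X (-2.31 ± 0.20, limma adjusted p = 0.00532). Of 6 cone markers 4 fell. Pigment epithelium markers summed to 4619 and 5183 in WT and to 6091 and 7762 in Q344X, with 3 of 8 tested genes higher. Beside the counts for rods, cones and pigment epithelium, 9.10% of all tested genes were lower and 5.46% higher. The part of these shifts in cell content in the members' levels was not tested.

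**Figure D5:**
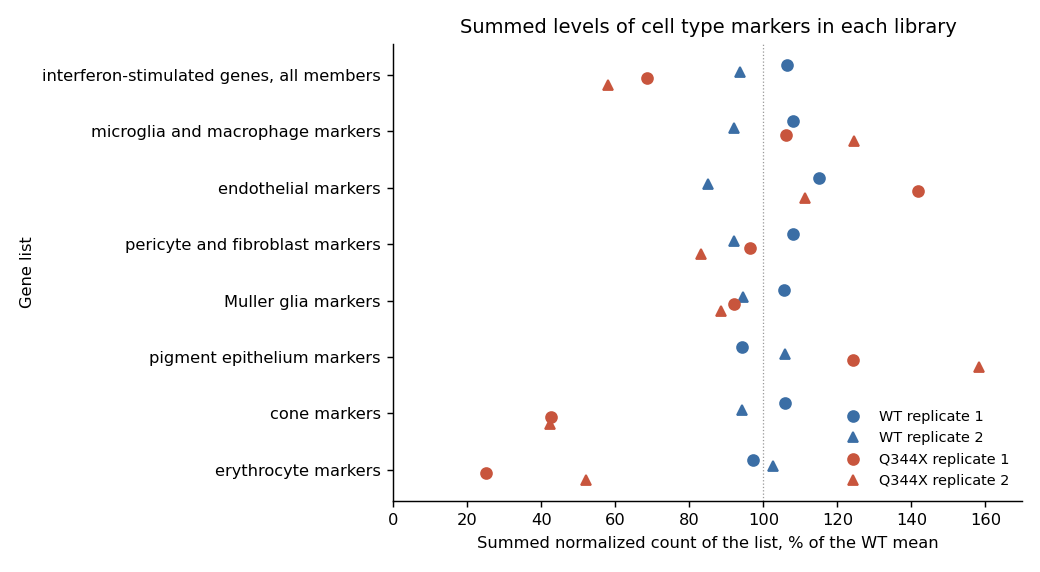
Summed normalized counts of the members and of 7 marker lists in each library, as a percentage of the WT mean of each list (dotted line at 100). The members are at 106%, 93.6%, 68.5% and 58.0% in the 4 libraries, erythrocyte and cone markers also lie below WT in Q344X, and the microglia markers of both groups overlap.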

How the data were processed

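Per the labels, the deposited table holds normalized counts per gene, a signal: gene counts that the authors scaled by 1 size factor per library. Per the submitters' processing notes, Trim Galore 0.4.4, FastQC, featureCounts, STAR and DESeq2 1.16.1 were used with mm10. Their roles, the annotation and the strand setting are not stated in any source used here. Dividing each column by the worth of 1 read gave whole numbers for 100% of the values within 0.001. The reads in genes came to 18452679 and 19706573 in WT and 19034261 and 19346580 in Q344X. In WT replicate 2 and Q344X replicate 1 a read is worth close to 1, and an automatic check of the recovered reads does not cover these columns.

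Genotype was fitted to log2(normalized count + 1) in limma 3.58.1 (R 4.3.3), with a mean-variance trend, Benjamini-Hochberg adjustment over the 16833 genes with a mean of at least 10, and a threshold of 0.05 (2 residual and 3.90 prior degrees of freedom). Fold changes are on that log2 scale, which understates the change of low genes, and their ± is the SE. An exact permutation test of 2 against 2 libraries cannot go below p = 0.333. The labels do not tie each library to 1 animal, so p-values measure only the spread between these libraries. This fit was tested on simulated data. The alternatives tried were a pseudocount of 0.5 or 5, a minimum mean of 50 or none, quantile normalization, 75th percentile scaling over the tested genes, robust variance moderation and each library left out. Those chosen after seeing the data were a loess correction for exon length and GC content and edgeR 4.0.16 (TMM, quasi-likelihood) on the recovered reads, with the same filter and with none.

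The members and lists were chosen with earlier results of these data known. Every member is named. Each pathway list has up to 4 named genes, led by the largest changes that passed and filled by mean level, and Ifnb1 and Ifng are always named. In marker lists the rule was to name the genes with the highest mean first. Ifit3b, Irgm2, Ifitm2, Tie1, Egfl7, Aqp4, Kcnj10, Hba-a2, Cd3e, Ly6c2, Ccr2, Dcn, Col1a2 and the receptor genes were named after their values were seen. Some genes that the rule picks are not reported here. Symbols were paired for 52403 of 52636 genes, with positions and exons from GENCODE M21 on GRCm38 (the assembly also called mm10). Promoter windows are RefSeq's, matched by symbol.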

Additional observations from a re-analysis of the deposited data

How the results depend on the processing

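No paired analysis was possible because the labels carry no replicate numbers. Over the members' fold changes and the alternatives, 380 of the values kept their direction and their side of the threshold, 23 lost the call, 9 gained it and 12 turned in sign. With no filter limma called 383 genes lower and 153 higher, 0 members, and 3 lower and 0 higher pathway genes. With a minimum mean of 50, 23 members were tested and 5 were lower (median -0.61), with 8 pathway genes lower and 0 higher. The share of all genes called lower at that minimum mean is not given here. Isg15, Usp18, Ifit1, Gbp2 and Bst2 fell under that mean and were not tested, and Oasl2 was tested and lost its call. The pathway lists had 0 higher genes under 75th percentile scaling and in edgeR. Quantile normalization gave the members a median of -0.75. The length and GC correction called 2388 genes lower and 1611 higher.

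Leaving out each library in turn gave 904 to 3045 lower and 555 to 2388 higher genes, 8 to 17 lower members with medians from -1.07 to -0.66, and 6 to 26 lower and 0 to 2 higher pathway genes. A fit without 1 library takes its variance from the intact pair. The same fits moved the log2 fold change of Ddx58 from -0.73 to 0.17, Eif2ak2 from -0.998 to 0.10, Dtx3l from -0.68 to 0.0037, Ifit2 from -0.49 to 0.0767, Cmpk2 from -0.11 to 0.0251, Ifi35 from -0.53 to 0.0202, Xaf1 from -0.38 to 0.28 and Ifitm2 from -0.15 to 0.17. Signs also turned with 75th percentile scaling for Ifitm2 (-0.0473), with quantile normalization for Cmpk2 (0.0575) and Xaf1 (0.15), and for Ifitm2 with the length and GC correction (-0.13) and in edgeR (-0.0068, and -0.0066 with no filter). The cause of these shifts was not tested. With 2 libraries per group and a few reads in Q344X, the changes of Isg15, Usp18, Rtp4 and Dhx58 have wide intervals.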
